A study of Rattus norvegicus with 8 samples.

Results

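The 9 genes described here are 5 matrix metalloproteinases (MMPs), Mmp2, Mmp3, Mmp9, Mmp12 and Mmp14, and the 4 tissue inhibitors of metalloproteinases (TIMPs), Timp1, Timp2, Timp3 and Timp4, measured in the dentate gyrus (DG) of ovariectomized rats after status epilepticus (SE). They were found by gene name among the non-control spots of the arrays, which gave 9 of 35250 names and 38 of 43379 spots, with 11 probes. All 8 rats were adult female Sprague-Dawley rats that had been ovariectomized and had undergone SE after 16 mg/kg kainic acid. The 4 COS rats had received oil. The 4 CES rats had received estradiol benzoate for estradiol (E2) replacement, in 4 doses of 2 µg at intervals of 24 h. According to the sample records, 2 of these doses came before SE and 2 after it, and SE was ended after 5 h with pentobarbital, whereas the methods of the study place all injections before SE, use a lower dose of kainic acid and end SE with diazepam. For the time of tissue collection the methods give both 24 h after SE and 2 h from the start of continuous seizures. Which account holds for these rats is not settled by the sources used here. Ovariectomy and SE were common to both groups, so the comparison is of E2 replacement with oil in seizured rats, and rats without SE were not analysed here. Each array carried 1 rat in Cy3 (replicates 1 and 3) and 1 rat of the same group in Cy5 (replicates 2 and 4).

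MMPs are zinc-dependent proteases that are secreted or held at the cell surface and cut collagens, laminins, proteoglycans and other proteins of the extracellular matrix, and most are made as inactive proenzymes. TIMPs bind the active site of MMPs, and the balance of the 2 families sets how much matrix is cut. In brain they are known for remodelling of synapses and of the blood-brain barrier after seizures and injury. Mmp14 is a membrane-anchored MMP that activates the proenzyme of Mmp2 with the help of Timp2, Mmp2 and Mmp9 are the gelatinases, Mmp3 is stromelysin-1, which can activate proMmp9, and Mmp12 is the macrophage elastase. Timp1 is a secreted, inducible inhibitor that binds proMmp9, Timp3 is held in the matrix and also inhibits ADAM proteases, and Timp4 is the inhibitor with the most restricted tissue range.

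The probes of the members with the largest differences or with incomplete detection are shown first, in lower case, 5′ to 3′, as the array files give them. Positions are those of the files for rn4. The Timp1 probe, at chrX:12542700-12543703 on the minus strand, the Mmp3 probe, at chr8:4325061-4325526 on the plus strand, and the Mmp12 probe, at chr8:4259057-4259413 on the plus strand, are 60 bases long but span 1004, 466 and 357 bases of genome, so each is exonic and crosses an intron. The Mmp9 probe, at chr3:155992463-155992522 on the plus strand, lies within 60 bases of genome. Timp1, Mmp9 and Mmp2 each had a probe printed in 10 spots.
Timp1 probe: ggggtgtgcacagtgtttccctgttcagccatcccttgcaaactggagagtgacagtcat
Mmp9 probe: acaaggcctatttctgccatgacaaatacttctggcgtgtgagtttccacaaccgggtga
Mmp3 probe: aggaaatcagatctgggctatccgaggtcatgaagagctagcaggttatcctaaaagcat
Mmp12 probe: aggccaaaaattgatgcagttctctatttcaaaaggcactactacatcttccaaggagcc

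Upstream sequence from RefSeq (GRCr8) was at hand for 6 of the 9 genes, Timp1, Timp2, Timp3, Timp4, Mmp3 and Mmp12. The 250 bases before the annotated start were searched on both strands for TGAGTCA, the consensus site of the AP-1 (Fos and Jun) factors, for TGAGTAA, a variant of that site, for the TATA box TATAAA, and for the full estrogen response element GGTCANNNTGACC. These letters were present in 4.05%, 2.38%, 12.9% and 0.0239% of 33469 upstream regions of the same length. Mmp3, Mmp12 and Timp1 are printed below because they were the 3 with an AP-1 match, which is in capitals. In Mmp3, TGAGTCA began 71 bases and TGAGTAA 144 bases before the start. In Mmp12, TGAGTCA began 87 bases before it, and in Timp1 TGAGTAA began 108 bases before it. Mmp3 and Mmp12 also held TATAAA. None of these 4 strings was present in this window of Timp2, Timp3 or Timp4, and none of the 6 windows held the full estrogen response element. A match describes the letters only and not the binding of a factor.
Timp1, chrX:3771123-3771372, minus strand: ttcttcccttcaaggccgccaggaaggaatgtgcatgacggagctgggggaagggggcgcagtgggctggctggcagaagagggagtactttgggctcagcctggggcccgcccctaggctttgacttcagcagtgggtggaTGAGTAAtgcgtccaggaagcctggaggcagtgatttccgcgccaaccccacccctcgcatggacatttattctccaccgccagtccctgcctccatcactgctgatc
Mmp3, chr8:12925031-12925280, plus strand: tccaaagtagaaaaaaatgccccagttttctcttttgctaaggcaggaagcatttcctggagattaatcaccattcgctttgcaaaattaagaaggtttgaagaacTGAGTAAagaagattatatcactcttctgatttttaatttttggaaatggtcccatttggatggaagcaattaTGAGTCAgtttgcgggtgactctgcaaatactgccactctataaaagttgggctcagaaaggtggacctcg
Mmp12, chr8:12866402-12866651, plus strand: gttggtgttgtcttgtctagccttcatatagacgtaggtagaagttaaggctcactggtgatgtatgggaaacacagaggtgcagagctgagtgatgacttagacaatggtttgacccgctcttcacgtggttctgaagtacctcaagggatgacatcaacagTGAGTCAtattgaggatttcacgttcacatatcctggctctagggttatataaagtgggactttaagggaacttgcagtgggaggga

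A level is the log2 of a gene's background-subtracted signal over the median of the same-label valid spots of its array, a spot being valid when its foreground is at least 2 times its background. The share of non-control spots that were valid ran from 74.6% to 88.9% over the COS rats and from 70.7% to 81.5% over the CES rats. Of 20825 genes quantified, limma (adjusted p under 0.05) called 5.74% higher in CES and 28.6% lower, and 21.2% had values that did not overlap between the 4 rats of each group. The median difference of all genes was −0.25 on the log2 scale. That value depended on the scaling, since it was 0.04 after loess and Aquantile normalization, 0.06 after quantile normalization, 0.15 when channels were scaled over only those spots that every rat had valid, and 0.12 in the authors' log2 table. The share of called genes that were higher in CES, 16.7% here, was then 59.6%, 57.5%, 65.7% and 62.5%. For the quantified members the difference minus this median is also given, as the value relative to all genes. The direction of every member was the same under each of the alternatives run. In bulk tissue, fewer cells of a type and less RNA per cell cannot be told apart. Among the CES rats, replicate 2 stood apart and was the closest to the COS rats for Timp1, Timp4, Mmp14 and Mmp3. It was also the closest for Mmp9, Mmp2, Timp3 and Mmp12, with smaller gaps to the next CES rat. Values without it are therefore given for the members.

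Detection came first. The scanner software marked at least 1 spot as well above background for 9, 9, 8 and 9 of the 9 genes in COS 1 to 4, and for 6, 9, 7 and 7 in CES 1 to 4. Of all 43379 non-control spots, 23368, 26687, 19543 and 25020 were so marked in COS 1 to 4. In CES 1 to 4 the counts were 20325, 28488, 20026 and 26937. Every Cy3 rat (replicates 1 and 3) thus had fewer marked spots than every Cy5 rat. Mmp2, Mmp14 and all 4 TIMPs were detected in all 8 rats, and no spot of a member was saturated. Mmp9 was detected in the 4 COS rats and in 3 CES rats, with none of its 10 spots marked in CES 1. Mmp3 was detected in the 4 COS rats and in 1 CES rat, and Mmp12 in 3 COS rats and in 1 CES rat, which for both genes was CES 2. The detected genes were thus fewest in CES 1, 3 and 4, and the genes not detected were MMPs in every rat. Mmp3 and Mmp12 had no spot valid in all 8 rats, which left 7 members for the fit across all genes. Of these 7, limma called 4 lower in CES (Timp1, Timp2, Mmp14 and Mmp2) and 1 higher (Timp4), while Mmp9 and Timp3 missed the threshold. Over all genes 28.6% were called lower and 5.74% higher. The groups did not overlap for 3 of the 7, Timp1, Timp2 and Mmp14, beside 21.2% of all genes.

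**Figure D1:**
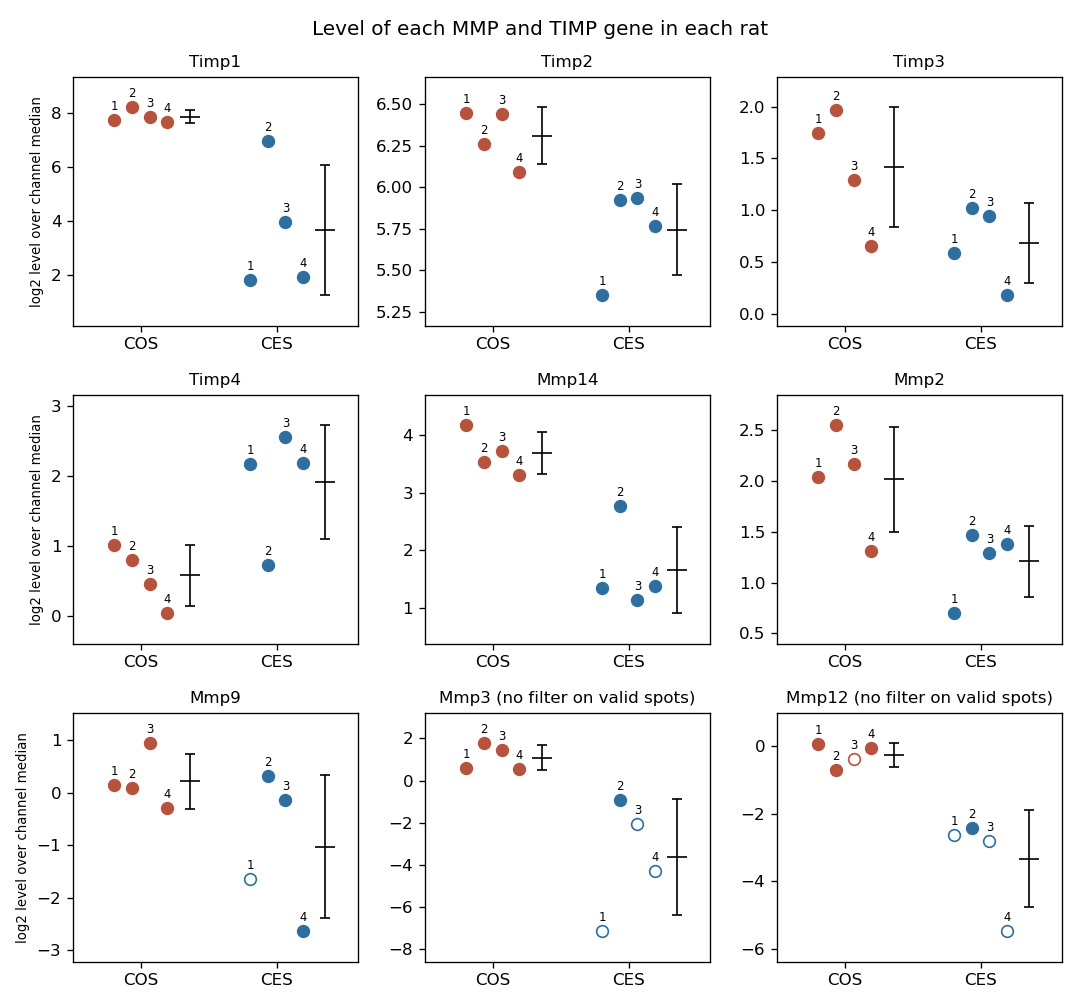
Log2 level of each gene (y axis, over the channel median) in the 4 COS and the 4 CES rats (x axis), with the replicate number beside each point, open symbols where no spot was well above background, and the mean with its SD at the right of each group. Timp1, Timp2 and Mmp14 did not overlap between the groups, Timp4 was higher in 3 of the 4 CES rats than in every COS rat, and open symbols lie in Mmp9, Mmp3 and Mmp12.

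Timp1 showed the largest difference of the 7 quantified members. Its log2 levels were 7.72, 8.20, 7.83 and 7.65 in COS 1 to 4 and 1.80, 6.96, 3.93 and 1.90 in CES 1 to 4. The COS rats lay close together, the CES rats were spread widely with replicate 2 the highest, and the groups did not overlap. COS averaged 7.85 ± 0.24 (SD, n = 4), against 3.65 ± 2.42 for CES (SD, n = 4). The CES minus COS difference was −4.20 (SE 0.90, 95% confidence interval −6.21 to −2.20, adjusted p = 0.00802, limma), an 18.4-fold higher level in COS, and −3.95 relative to all genes. Without CES replicate 2 the difference was −5.34 (SE 0.43, adjusted p = 1.11e-05), and without CES replicate 4 it was −3.38. The difference was −4.91 among the Cy3 rats and −3.50 among the Cy5 rats, where it was not called (adjusted p = 0.345). Over the 25 alternatives the adjusted p ran from 1.36e-06 to 0.345 and 19 kept the call. The losses included loess and Aquantile (adjusted p = 0.0524, limma), scaling over spots valid in all rats (0.0543) and the authors' log2 table (0.0507). The differences were then −3.76, −3.80 and −3.85.

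The spread of Timp1 among the CES rats was far larger than the spread between spots. In its 10 spots the log2 level ran from 1.65 to 2.03 in CES 1, from 6.78 to 7.23 in CES 2, from 3.32 to 4.22 in CES 3 and from 1.16 to 2.19 in CES 4. The SD of the 10 spots within a rat lay between 0.12 and 0.27. Spots of CES 1 and CES 4 overlapped with each other and with no spot of any other rat.

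**Figure D2:**
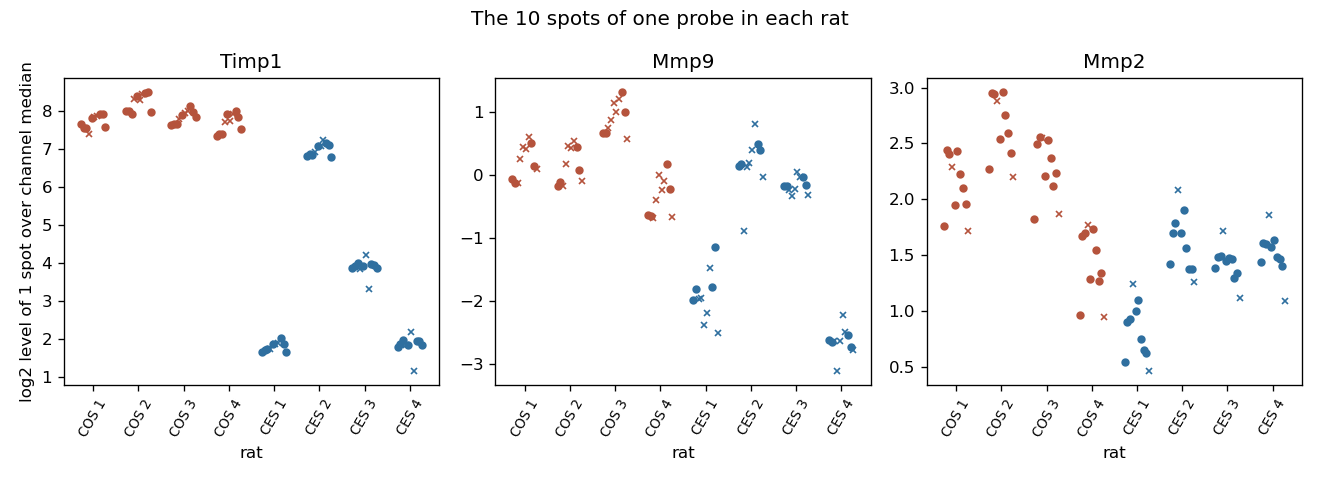
Log2 level over the channel median (y axis) of each of the 10 spots of 1 probe of Timp1, Mmp9 and Mmp2 in each rat (x axis), with crosses for spots marked as outliers in at least 1 rat. The spots of a rat stay together, with an SD of at most 0.27 for Timp1, 0.45 for Mmp9 and 0.31 for Mmp2, and for Timp1 the 4 CES rats fall at 3 separate heights.

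Timp4 went the other way and was the only one of the 7 members called higher in CES. Its log2 levels were 1.01, 0.80, 0.45 and 0.03 in COS 1 to 4 and 2.17, 0.72, 2.55 and 2.19 in CES 1 to 4. CES replicate 2 lay within the COS range, and the other 3 CES rats were above every COS rat. The difference was 1.33 (SE 0.33, adjusted p = 0.0136, limma), a 2.52-fold higher level in CES, and 1.59 relative to all genes. Without CES replicate 2 it was 1.69 (SE 0.24, adjusted p = 0.000342). The 2 probes of Timp4 gave 1.41 (SE 0.35) and 1.12 (SE 0.28), and both were called. The call was kept under 19 of 25 alternatives, with adjusted p from 0.000342 to 0.403. It was lost without COS replicate 3 (adjusted p = 0.0832) or CES replicate 1 (adjusted p = 0.0547), among the Cy5 rats, where the difference was 1.04, with normexp, without the filter on valid spots and with the methods' t-test.

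Timp2 had a small difference. Its log2 levels, 6.45, 6.26, 6.44 and 6.09 in COS 1 to 4, were all above the 5.35, 5.92, 5.94 and 5.77 of CES 1 to 4. The difference was −0.57 (SE 0.19, adjusted p = 0.0417, limma), a 1.48-fold higher level in COS. Relative to all genes it was −0.31. The call was kept under 9 of 25 alternatives, with values from −0.80 to −0.17 and adjusted p from 0.0127 to 0.730. It was lost when any 1 COS rat was left out and without CES replicate 1, where the difference was −0.40. Without CES replicate 2 the difference relative to all genes was −0.37. Scaling over spots valid in all rats gave a difference of −0.17 (SE 0.16, adjusted p = 0.456, limma). The lack of overlap was narrow, with COS 4 at 6.09 and CES 3 at 5.94, and was read under the main scaling only.

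Timp3 was not called. Log2 levels were 1.74, 1.97, 1.30 and 0.66 in COS 1 to 4 and 0.59, 1.03, 0.94 and 0.18 in CES 1 to 4, and the groups overlapped only through COS 4. The difference was −0.73 (SE 0.30, 95% confidence interval −1.39 to −0.07, adjusted p = 0.0813, limma) and −0.48 relative to all genes. Blocking on the replicate number gave an adjusted p of 0.0208, and without CES replicate 2 the difference was −0.90 (adjusted p = 0.0306). Over 25 alternatives the adjusted p ran from 0.0208 to 0.631.

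Mmp14, the membrane-anchored activator of proMmp2, was lower in every CES rat than in any COS rat. On the log2 scale it was at 4.17, 3.54, 3.72 and 3.32 in COS 1 to 4 and 1.34, 2.77, 1.14 and 1.37 in CES 1 to 4. CES replicate 2 was again the nearest to COS, and the other 3 CES rats lay within a narrow range. COS averaged 3.69 ± 0.36 (SD, n = 4), against 1.66 ± 0.75 for CES (SD, n = 4). The difference was −2.03 (SE 0.35, 95% confidence interval −2.80 to −1.26, adjusted p = 0.00421, limma), a 4.08-fold higher level in COS, and −1.78 relative to all genes. It was −2.44 (adjusted p = 1.46e-05) without CES replicate 2, −2.71 among the Cy3 rats and −1.35 among the Cy5 rats. Of 25 alternatives, 23 kept the call, with adjusted p from 5.89e-06 to 0.333, and the exceptions were the Cy5 rats alone and the methods' t-test.

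Mmp2, the gelatinase that Mmp14 activates, was modestly lower in CES. On the log2 scale it was at 2.04, 2.55, 2.17 and 1.31 in COS 1 to 4 and 0.70, 1.47, 1.29 and 1.38 in CES 1 to 4. COS 4 lay among the CES rats, and the other 3 COS rats were above all of them. The difference was −0.81 (SE 0.28, adjusted p = 0.0455, limma), a 1.75-fold higher level in COS, and −0.55 relative to all genes. The probe printed in 10 spots gave −0.82 (SE 0.28) and the second probe, in 1 spot, −0.42 (SE 0.20, adjusted p = 0.132). The call was kept under 10 of 25 alternatives, with adjusted p from 0.0126 to 0.589. It was lost without COS replicate 1, 2 or 3 or CES replicate 1, where the differences were −0.78, −0.62, −0.66 and −0.62. Without CES replicate 2 the difference relative to all genes was −0.61.

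Mmp9, the other gelatinase, varied widely among the CES rats and was not called. Its log2 levels were 0.14, 0.09, 0.95 and −0.29 in COS 1 to 4 and −1.64, 0.32, −0.13 and −2.64 in CES 1 to 4. CES 2 and CES 3 lay within the COS range, while CES 1, where no spot was well above background, and CES 4 were below every COS rat. The difference was −1.25 (SE 0.56, 95% confidence interval −2.49 to −0.0036, adjusted p = 0.109, limma) and −0.99 relative to all genes. Only 4 of its 10 spots entered, since 6 were marked as outliers in some rat, and with those kept the difference was −1.37 (adjusted p = 0.0879). Blocking on the replicate number gave an adjusted p of 0.0418. Without CES replicate 2 the difference was −1.87 (SE 0.37, adjusted p = 0.00255), and without CES replicate 4 it was −0.76 (adjusted p = 0.0945). The background-subtracted signal was low in CES 1, at 74.2 over a background of 45.65, and in CES 4, at 79.9 over 35.8. After loess and Aquantile normalization the difference shrank to −0.37, and with normexp to −0.64. Over 23 alternatives the adjusted p ran from 0.00255 to 0.571.

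Mmp3 and Mmp12, which lie near each other on chromosome 8, were near background in most CES rats. The background-subtracted intensity of the Mmp3 spot was 497, 1960, 646 and 1052 in COS 1 to 4 and 1.9, 329.5, 49.6 and 25.4 in CES 1 to 4, over a local background of 36 to 54.5. That of the Mmp12 spot was 340, 348, 182 and 688 in COS 1 to 4 and 43.5, 117, 29.4 and 11.1 in CES 1 to 4, over a background of 35 to 52. For both genes every COS rat was above every CES rat, also after scaling to the channel median. Fitted without the filter on valid spots, the log2 difference was −4.69 (SE 1.25, adjusted p = 0.0520, limma) for Mmp3 and −3.05 (SE 0.63, adjusted p = 0.0345) for Mmp12, in a fit that called 8.16% of 34550 genes lower. Since 3 of the 4 CES rats did not show either gene well above background, the sizes of these differences rest on CES signals at or near background and are not measured levels. After loess and Aquantile normalization the differences shrank to −1.62 (adjusted p = 0.0198) and −0.89 (adjusted p = 0.0416). Without CES replicate 2 they were −5.53 (adjusted p = 0.0157) and −3.57 (adjusted p = 0.00537), and the adjusted p over 10 alternatives ran from 0.0157 to 0.493 for Mmp3 and from 0.00537 to 0.726 for Mmp12.

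**Figure D3:**
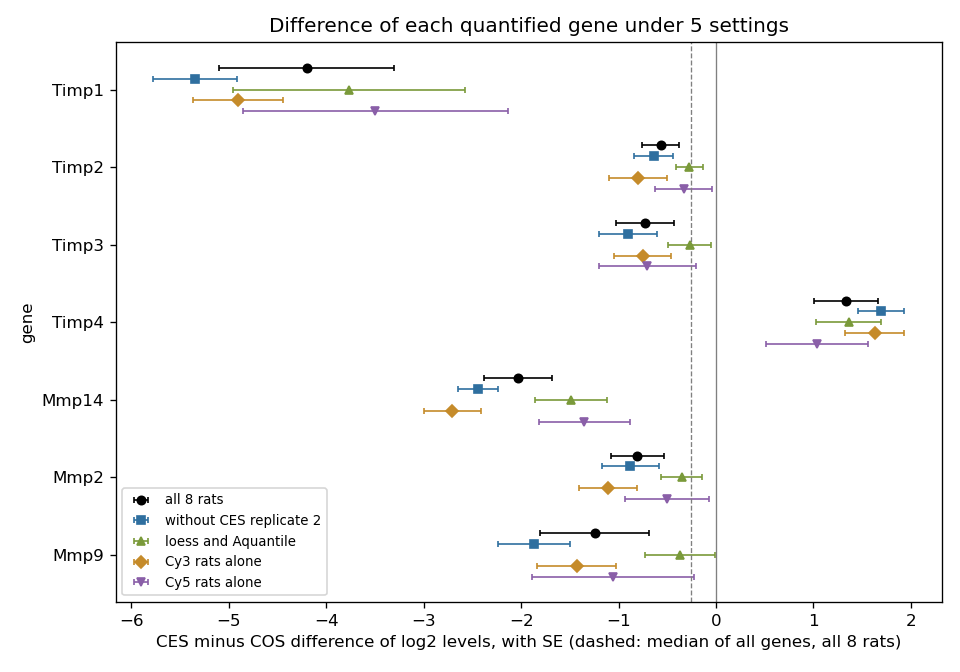
CES minus COS difference of log2 levels (x axis) with its SE for the 7 quantified genes (y axis), for all 8 rats, without CES replicate 2, after loess and Aquantile normalization, and for the Cy3 and the Cy5 rats alone, with a solid line at 0 and a dashed line at the median of all genes, −0.25. Timp1 and Mmp14 lie left of both lines and Timp4 right of both under all 5 settings.

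The genes whose log2 levels followed each member most closely over the 8 rats, after the mean of each dye was removed, are given as a description. All values came from the same 4 arrays, and 13223 genes that were well above background in all rats were compared. For Timp1 the closest named gene was Pdpn (podoplanin, a membrane glycoprotein; Pearson r = 0.999), with log2 levels of 4.58, 4.54, 4.39 and 4.18 in COS 1 to 4 and 1.08, 3.82, 2.29 and 0.96 in CES 1 to 4. As for Timp1, CES 2 was the highest of the CES rats and CES 3 the next, while CES 1 and CES 4 were in the opposite order. For Mmp14 it was Alpl (alkaline phosphatase, r = 0.998), for Timp4 Purg (r = 0.998) and Gjb6 (connexin 30 of astrocyte gap junctions, r = 0.996), for Timp2 Cutc (r = 0.997) and Cwc27 (r = 0.996), for Timp3 Tbx3 (r = 0.994) and Dot1l (r = 0.991), and for Mmp2 Mecr (r = 0.992). For Timp1, Mmp14 and Mmp2 the other closest probe carried no gene symbol.

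The pathway around the members was read through 4 lists, of other MMP genes, of ADAM and ADAMTS proteases, of activators, inhibitors and partners of MMPs, and of MMP substrates. Of 76 genes, 65 were on the array and 48 were quantified. Limma called 22 lower and 1 higher in CES, beside 28.6% and 5.74% of all genes. All 17 other MMP genes were on the array, but 6 were well above background in no rat and 6 were quantified, of which 1 was lower and none higher, with a median difference of 0.21. That gene was Mmp16, another membrane-anchored MMP, with a difference of −0.77 (SE 0.17), and −0.52 relative to all genes. The call was kept under 16 of 25 alternatives, with adjusted p from 0.00229 to 0.468 (limma). With outlier-marked spots kept the difference was −0.41 (adjusted p = 0.0670, limma). After loess and Aquantile Mmp16 differed by −0.34. Its log2 levels were 2.71, 2.51, 2.83 and 2.36 in COS 1 to 4 and 1.67, 1.73, 2.22 and 1.71 in CES 1 to 4. The groups did not overlap, which was a condition for naming the gene.

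Of 16 ADAM and ADAMTS genes quantified, 8 were lower and none higher, and the median difference was −0.64. Adamts7 and Adamts9 differed by −2.56 (SE 0.30) and −2.54 (SE 0.30), and by −1.75 and −1.67 after loess and Aquantile normalization. Adamts1, well above background in the 4 COS rats but in only 1 CES rat, differed by −2.88 (SE 0.38), which shrank to −1.13 after loess and Aquantile and to −1.34 with normexp. Adamts5, well above background in the 4 COS rats and in 2 CES rats, differed by −1.11 (SE 0.19), and by −0.35 after loess and Aquantile. With normexp its difference was −0.61 and the call was lost (adjusted p = 0.398, limma). These 4 genes encode secreted proteases, and Adamts1, Adamts9 and Adamts5 cut proteoglycans of the aggrecan family. The log2 level of Adamts7 was 2.74, 2.32, 2.88 and 2.90 in COS 1 to 4 and −0.01, 0.99, 0.15 and −0.55 in CES 1 to 4. None of the 4 overlapped between the groups, which was a condition for naming them.

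Of 11 activators, inhibitors and partners quantified, 6 were lower and none higher, with a median difference of −0.65. Cd44, the hyaluronan receptor that docks MMPs at the cell surface, had log2 levels of 5.67, 5.50, 5.92 and 5.41 in COS 1 to 4 and 0.10, 4.32, 0.52 and −0.12 in CES 1 to 4. As for Timp1, CES 2 was far above the other CES rats but below every COS rat. The difference was −4.42 (SE 0.79, adjusted p = 0.00467, limma), a 21.4-fold higher level in COS. It was −5.52 without CES replicate 2 and −3.63 without CES replicate 4. Cd63, a tetraspanin that binds Timp1, differed by −2.05 (SE 0.41) and Furin, the convertase that activates proMmp14, by −1.16 (SE 0.25). The Furin call was lost with normexp, where the difference was −0.86 (adjusted p = 0.197, limma). Thbs2, a matricellular thrombospondin well above background in the 4 COS rats and in 2 CES rats, differed by −1.64 (SE 0.34), and by −0.63 after loess and Aquantile. With normexp its difference was −0.78 and the call was lost (adjusted p = 0.255, limma), with adjusted p from 0.000221 to 0.350 over 24 alternatives. Lcn2 (lipocalin 2), which binds Mmp9, was named after its values were seen because CES 2, at 3.88, lay within the COS range of 3.58 to 4.59, while the other 3 CES rats were at −0.37, −0.05 and −1.64. Reck, a membrane inhibitor of MMPs, differed by −0.65 (adjusted p = 0.0587) and was not called.

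Of 15 substrates quantified, 7 were lower and 1 higher, with a median difference of −0.77. Tnc (tenascin C), Fn1 (fibronectin), Lamc1 (a laminin chain) and Col4a2 (a collagen IV chain) differed by −2.72 (SE 0.41), −2.09 (SE 0.41), −1.87 (SE 0.28) and −1.37 (SE 0.30). The log2 level of Fn1 was 4.20, 3.32, 3.35 and 3.07 in COS 1 to 4 and 1.06, 2.63, 1.29 and 0.61 in CES 1 to 4. Tnc and Lamc1 were well above background in the 4 COS rats and in 2 CES rats, and after loess and Aquantile they differed by −1.50 and −0.73. Spp1 (osteopontin), named after its values were seen, was also called lower, with log2 levels of 8.69, 5.72, 7.66 and 6.13 in COS 1 to 4 and 1.13, 6.35, 0.42 and −1.50 in CES 1 to 4, so that CES 2 again lay within the COS range. Nlgn1 (neuroligin 1, a postsynaptic adhesion protein that MMPs cut) was the 1 gene called higher, by 0.73 (SE 0.15), with log2 levels of 1.38 to 1.87 in COS and 2.06 to 2.73 in CES. With normexp Nlgn1 differed by 0.74 and the call was lost (adjusted p = 0.242, limma). Dag1 (dystroglycan), another synaptic and vascular substrate, differed by −0.37 and was not called.

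**Figure D4:**
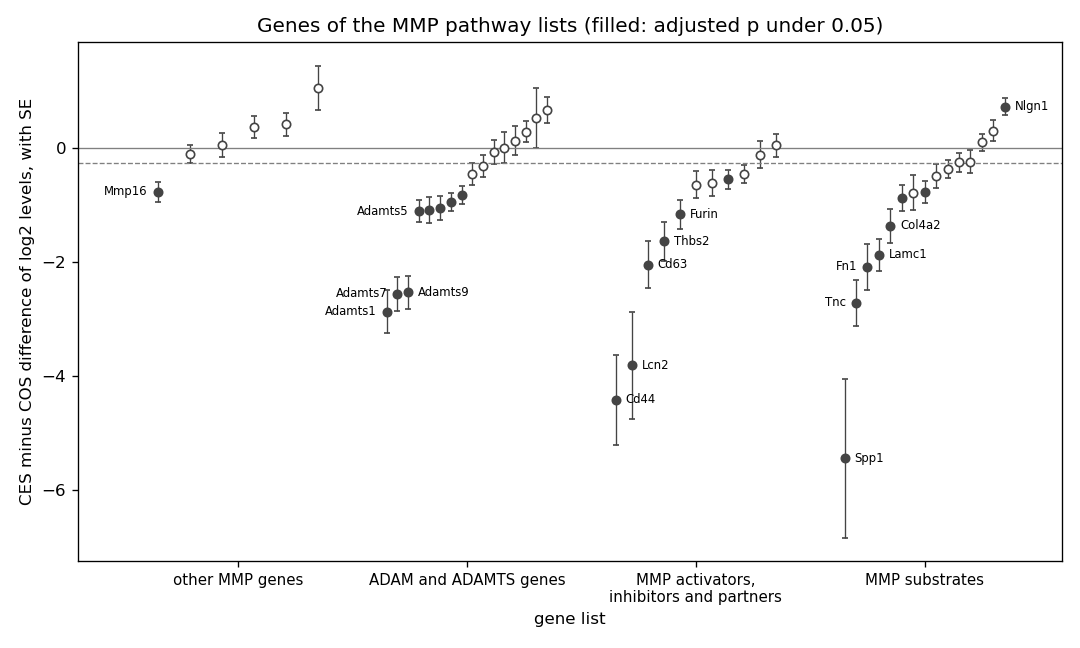
CES minus COS difference of log2 levels with its SE (y axis) for the quantified genes of the 4 lists (x axis), filled where limma called the gene, with a solid line at 0 and a dashed line at the median of all genes. Of the 23 filled points, the 22 called lower lie below both lines, and Nlgn1 lies above 0.

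Markers of the cell types that a DG sample can hold moved with the groups to differing degrees. Levels of a marker list were summed on the linear scale, over the channel median. Counts of called genes here and in the next paragraph stand beside 28.6% lower and 5.74% higher over all genes. The median difference of all genes was −0.25. The microglia and macrophage list, with all 8 genes quantified, summed to 68.5 to 109 in COS and 39.3 to 65.6 in CES. These sums did not overlap, but the gap from 65.6 to 68.5 was narrow, and sums were taken under this scaling only. In that list 4 genes were lower (Cd68, Itgam, Csf1r and C1qa) and 1 higher (P2ry12), with a median difference of −0.64. Its marker Tmem119 was well above background in 1 rat. The pericyte and smooth muscle list summed to 19.6 to 31.7 in COS and 13.3 to 20.4 in CES, with 3 of 5 genes lower and 1 higher. Its median difference was −0.65. The endothelial list summed to 25.9 to 40.8 in COS and 16.0 to 28.6 in CES, with 3 of 5 genes lower and a median difference of −0.81. The part of these cells in the differences of Timp1, Mmp14, Mmp3 and Mmp12 was not tested.

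Of the neutrophil markers, Elane and Mpo were well above background in no rat, S100a8 and S100a9 in 3 COS rats and 1 CES rat each, and Camp and Csf3r in 1 COS rat and 2 CES rats each. Camp, the 1 quantified, differed by 0.38 (adjusted p = 0.287, limma) and was not called. The choroid plexus list summed to 739 in COS 2 and to between 32.8 and 246 in the other rats, with no gene called. COS 2 also had the highest Timp1, Mmp2 and Timp3 levels of all rats. Without COS 2 the difference was −0.62 for Mmp2, which was then not called (adjusted p = 0.127, limma). The Mmp2 call was also lost without COS 1, COS 3 or CES 1. Relative to all genes, the differences without COS 2 were −4.03 for Timp1, −0.27 for Timp3 and −0.42 for Mmp2. With all rats these were −3.95, −0.48 and −0.55. The part of choroid plexus was not tested. The fibroblast list summed to 22.1 to 94.2 in COS and 26.8 to 30.4 in CES, with 2 of 7 genes lower and 1 higher. Its median difference was −0.34, near the −0.25 of all genes. Astrocyte sums were 177 to 194.5 in COS and 150.5 to 230.7 in CES, and 2 of the 6 genes, Gja1 and Aldh1l1, were higher and 1, S100b, lower. Gfap, a marker of reactive astrocytes, differed by −1.22 (SE 0.44, adjusted p = 0.0531, limma) and was not called, though its COS levels of 5.63 to 6.04 on the log2 scale were all above its CES levels of 3.48 to 5.58. Oligodendrocyte sums were 223 to 405 in COS and 301 to 466 in CES, with no gene called. Of the neuronal list, Prox1, a marker of granule cells, was well above background in no rat, while Calb1, Neurod2, Snap25 and Syt1 were in all 8, and their sums were 220 to 296 in COS and 260 to 345 in CES. Of these 4, Neurod2 (1.11, SE 0.22) and Syt1 (0.58, SE 0.17) were called higher in CES and none lower, and the median difference was 0.37, beside −0.25 for all genes. The part of neurons in the members' differences was not tested.

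**Figure D5:**
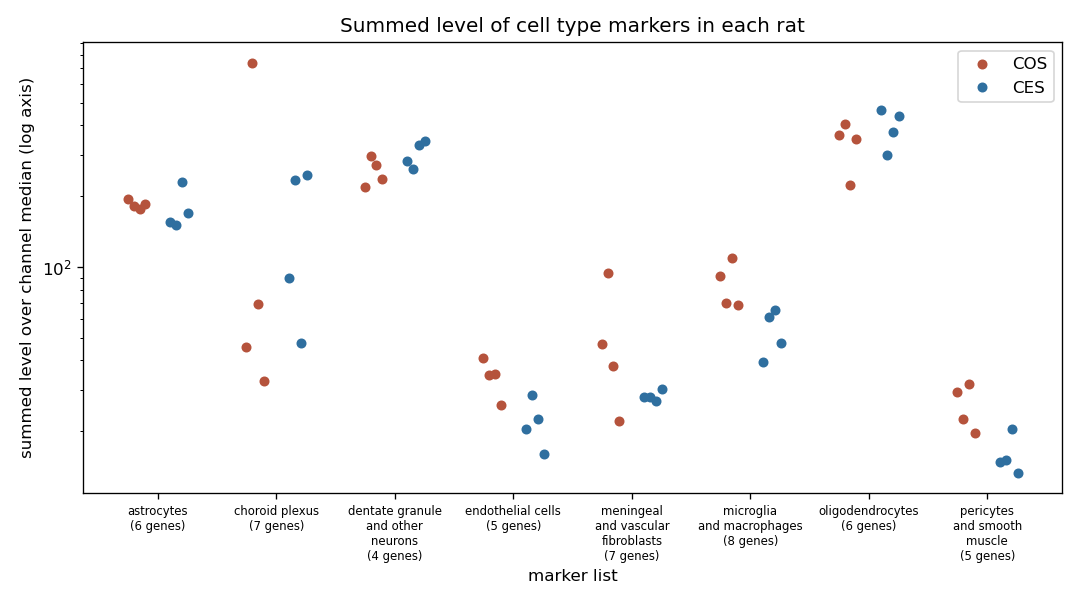
Summed level over the channel median (y axis, log scale) of the quantified genes of each marker list (x axis) in the COS and the CES rats. The microglia and macrophage list is the only one without overlap between the groups, by a narrow gap (65.6 to 68.5), and the choroid plexus list is highest in 1 COS rat, at 739.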

How the data were processed

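RNA of the dentate gyrus of 8 rats was hybridised to 4 two-colour Agilent arrays on 1 slide, with 1 rat per channel. The authors deposited the scanner output of Agilent Feature Extraction 10.7.3.1, from which mean foreground and median background intensities were taken, and a table of log2 values, which served as an alternative. The scanner's flags, also deposited by the authors, gave outlier, saturation and well-above-background calls per spot.

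A spot was valid when its foreground intensity was at least 2 times its background. Background was subtracted, each value was set over its channel's median valid spot, and for each gene the spots that passed in all 8 rats without an outlier mark (26294 spots, 20825 genes in all) were averaged and taken to log2. CES was compared with COS using limma 3.58.1 (R 4.3.3), with dye as a covariate and the array as a random block (statmod 1.5.0; consensus correlation −0.0104), and Benjamini-Hochberg adjustment over all 20825 genes. Since both rats of an array were of 1 group, array and group cannot be told apart within an array. At a consensus correlation of −0.0104 the fit treated the 8 rats almost as independent. The SEs (median 0.20) and adjusted p-values therefore do not carry the limit set by the number of arrays. The labels call the rats biological replicates. The steps were tested on simulated data.

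Rats with the same replicate number deviated together (r = 0.33, 0.21, 0.31 and 0.35), but numbers 1 and 3 were Cy3 and 2 and 4 Cy5, and without each dye's mean r was −0.06 and −0.04. A fit with the number as a block was run as an alternative.

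The 9 members and all gene lists were chosen with earlier results of these data known. Pathway genes were named where limma called them, all 4 rats of at least 1 group were well above background and the groups did not overlap, up to the 4 with the largest difference in each direction per list. A gene could pass through the group where it was high, so incomplete detection in CES is given beside each such gene and these genes are no support for the direction of their list. For each quantified member well above background in all 8 rats, the 2 genes with the highest Pearson's r were named. Alternatives covered background correction, normalization, filters, probe choice, model terms, dye, the methods' t-test and each rat left out. Upstream sequences came from RefSeq (GRCr8). Rats without SE were not analysed here. Figures were drawn with matplotlib 3.10.9.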

Additional observations from a re-analysis of the deposited data

Results flagged for a closer look

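In 46 groups of 4 rats, for the 9 members and 14 named pathway genes, a rat was marked where its gap to the nearest of the others, over the range of its group, passed Dixon's 95% critical value for 4 values. Chance marks about 1 group in 20, and 6 were marked. CES replicate 2 was the rat marked 3 times, above the other CES rats for Mmp14 (log2 level 2.77), Cd44 (4.32) and Adamts9 (0.88). CES replicate 4 lay below the other CES rats for Mmp12, at −5.48, where the spot was not well above background. CES replicate 3 lay above the others for Mmp16, at 2.22. COS replicate 4 lay below the other COS rats for Furin, at 1.71.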

How the results depend on the processing

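No member or named pathway gene changed direction under any alternative run. Of the 7 quantified members, 1 was called higher and 4 lower. The number called higher was 0 with normexp, without the filter on valid spots, among the Cy5 rats and with the methods' t-test, and 0 to 1 with 1 rat left out (0 without COS replicate 3 or CES replicate 1). The number called lower was 2 with normexp, 1 after loess and Aquantile, 2 after quantile normalization, 1 when scaled over spots valid in all rats, 2 with foreground at least 3 times background, 1 in the authors' log2 table, and 0 among the Cy5 rats and with the methods' t-test. With 1 rat left out it was 1 to 6, with 2 without COS replicate 1, COS replicate 2 or CES replicate 1, 1 without COS replicate 3 and 6 without CES replicate 2. With the replicate block it was 6, through Mmp9 and Timp3, and the block changed no other call of a member.

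Of the 48 pathway genes, 1 was called higher and 22 lower. The number called higher was 0 with normexp, among the Cy3 rats, among the Cy5 rats and with the methods' t-test, 2 after loess and Aquantile and with the replicate block, 3 with the processed signal, after quantile normalization and in the authors' log2 table, 4 when scaled over spots valid in all rats, and 0 to 4 with 1 rat left out. The number called lower was 9 with normexp, 13 when scaled over spots valid in all rats, 0 among the Cy5 rats and with the methods' t-test, and 8 to 26 with 1 rat left out (8 without COS replicate 3).

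Over all genes, 1195 were higher and 5957 lower. The counts were 139 and 492 with normexp, 3252 and 2208 after loess and Aquantile, 3004 and 2216 after quantile normalization, 3296 and 1717 when scaled over spots valid in all rats, 3213 and 1927 in the authors' log2 table, 403 and 2820 without the filter, 1222 and 2811 with foreground at least 3 times background, and 285 and 1142 without COS replicate 3. Limma on the Cy5 rats, with 2 against 2, called 0 and 2 genes, with 2887 at an unadjusted p under 0.05, and the methods' t-test called 0 and 0, with 5909. The causes were not tested. Signal over background limited Mmp3, Mmp12 and, in CES replicates 1 and 4, Mmp9.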
